A study of Mus musculus with 4 samples.

Results

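The olfactory receptor genes of chromosome 19 were followed between WT and KO hepatocytes in the lists of regions at the nuclear envelope (NE). The members are the protein-coding genes of the mm9 annotation that lie on chromosome 19 and have a symbol beginning with *Olfr*. There are 65 of them among the 22367 protein-coding genes compared, and among 1113 *Olfr* genes in all. The measurements came from DamID, in which Dam methylase fused to LaminB1 marks GATC sites that come near the nuclear lamina, and Dam alone measures how accessible the DNA is. Primary hepatocytes were isolated from WT mice and from *Tm7sf2*-/- (NET47 KO) mice, all aged 12 to 16 weeks and on a C57BL/6 background, and received a lentivirus for LaminB1-Dam or for Dam only. This gave 4 libraries, 1 of each construct per genotype, and each library held the pooled DNA of 4 mice. The KO carries the deletion in every cell of the animal, not in hepatocytes alone.

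The lists give the position of lamina-associated domains (LADs) in WT and in KO, and of differential regions (DRs), which are stretches of at least 10 kb in a LAD of one genotype only. They hold no signal, score or read number. With a single pooled library pair per genotype there is no spread between animals and no p-value, and the intervals given for percentages are 95% Wilson intervals that cover counting error only. Neighboring genes share LADs and are not independent of each other. A gene was called PI (periphery to interior) when 1 or more of its bases fell in a WT-only DR, and IP (interior to periphery) when they fell in a KO-only DR. AMB stands for genes with bases in DRs of both kinds. Genes without a DR were PP if LADs of WT and of KO touched them, and II if not. Of the 10 hepatocyte genes listed to check the cell type, 9 were found in the annotation, 8 of them were II and *Cps1* was PI. Over all protein-coding genes, 56.6% were II and 5.43% PI. A gene outside LADs can be silent as well as active, so the lists do not identify the cell type by themselves.

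Olfactory receptors are G protein-coupled receptors of sensory neurons in the nose. They form the largest gene family of the mouse, their genes sit in clusters on many chromosomes, and most have a coding sequence without introns. Each sensory neuron uses a single receptor allele. In other tissues the clusters are silent, and they are often found in heterochromatin. As the clusters grew by local duplication, neighbors can be nearly identical in sequence, and reads from such copies are hard to place.

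The chromosome 19 members hold several pairs that are nearly identical in sequence but differ in class. *Olfr1502* and *Olfr1505* are the most alike pair of different class. Their coding sequences of 951 bases matched at 927 positions (97.5%), and the genes are 56.2 kb apart. *Olfr1502* was PI and *Olfr1505* was PP. The first 300 coding bases of each (GENCODE transcripts on NCBIM37, 5′ to 3′) are shown to let the copies be compared, with the 8 bases that differ in capitals.
Olfr1502: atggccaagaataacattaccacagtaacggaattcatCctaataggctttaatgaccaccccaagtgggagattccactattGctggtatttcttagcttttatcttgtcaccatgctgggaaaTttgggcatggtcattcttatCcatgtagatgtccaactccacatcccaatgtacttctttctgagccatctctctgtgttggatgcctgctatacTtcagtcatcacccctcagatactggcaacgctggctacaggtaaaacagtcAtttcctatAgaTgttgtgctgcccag
Olfr1505: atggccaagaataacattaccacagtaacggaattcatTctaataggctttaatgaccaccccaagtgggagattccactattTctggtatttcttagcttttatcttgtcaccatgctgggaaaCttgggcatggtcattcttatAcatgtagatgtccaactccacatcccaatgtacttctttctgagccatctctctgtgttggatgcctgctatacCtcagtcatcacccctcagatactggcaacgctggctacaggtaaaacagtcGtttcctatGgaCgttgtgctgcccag

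A further case is a pair of convergent genes that occurs in 2 copies. *Olfr1471* (plus strand) and *Olfr1472* (minus strand) resemble *Olfr1474* (plus strand) and *Olfr1475* (minus strand). *Olfr1471* matched *Olfr1474* at 97.1% of the coding bases over a distance of 25.01 kb, and *Olfr1472* matched *Olfr1475* at 96.9% over 24.7 kb. The copy with *Olfr1471* and *Olfr1472* was wholly inside a WT LAD and outside KO LADs, so both genes were PI. The copy with *Olfr1474* and *Olfr1475* touched LADs in both genotypes, so both genes were PP. The promoters of these 4 genes (RefSeq, GRCm38.p6, 250 bases before to 50 bases after the start, 5′ to 3′) are shown because they come from matching places and did not share a LAD state. They were chosen after the values were seen. Span and coding sequence are both 945 bases long for these 4 genes, so the start used is the start codon. Each window thus holds the 250 bases before the coding sequence and its first 50 bases. A transcription start farther upstream would lie outside it. By exact match to NCBIM37 the 4 windows lie at chr19:13519254-13519553, chr19:13528956-13529255, chr19:13545212-13545511 and chr19:13554637-13554936. Capitals mark TAATTA, the core recognized by LIM-homeodomain proteins such as LHX2.
Olfr1471 promoter: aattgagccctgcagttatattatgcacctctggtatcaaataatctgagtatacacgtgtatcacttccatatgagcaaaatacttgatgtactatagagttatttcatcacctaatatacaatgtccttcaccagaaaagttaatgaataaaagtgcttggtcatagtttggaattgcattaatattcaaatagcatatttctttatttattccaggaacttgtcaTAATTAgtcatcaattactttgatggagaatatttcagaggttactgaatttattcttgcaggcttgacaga
Olfr1472 promoter: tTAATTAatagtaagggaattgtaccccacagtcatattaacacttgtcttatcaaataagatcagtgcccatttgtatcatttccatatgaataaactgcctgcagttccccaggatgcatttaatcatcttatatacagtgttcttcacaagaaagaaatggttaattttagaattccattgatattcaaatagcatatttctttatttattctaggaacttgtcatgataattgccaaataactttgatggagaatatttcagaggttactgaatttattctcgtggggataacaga
Olfr1474 promoter: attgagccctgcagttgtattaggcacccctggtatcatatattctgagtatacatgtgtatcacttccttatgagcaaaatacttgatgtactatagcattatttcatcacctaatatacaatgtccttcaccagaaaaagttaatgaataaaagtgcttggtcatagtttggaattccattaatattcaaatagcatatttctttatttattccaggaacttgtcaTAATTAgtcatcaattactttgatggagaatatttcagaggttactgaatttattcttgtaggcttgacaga
Olfr1475 promoter: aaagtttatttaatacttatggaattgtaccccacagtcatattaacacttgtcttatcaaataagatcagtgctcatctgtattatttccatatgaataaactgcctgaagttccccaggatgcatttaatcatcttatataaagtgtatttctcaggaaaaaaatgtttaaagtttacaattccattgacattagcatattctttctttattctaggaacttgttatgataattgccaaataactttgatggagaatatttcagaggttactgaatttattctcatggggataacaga
The *Olfr1471*, *Olfr1472* and *Olfr1474* promoters held TAATTA and that of *Olfr1475* did not. The *Olfr1471* and *Olfr1472* promoters were in a WT LAD only, that of *Olfr1474* in no LAD of either genotype, and that of *Olfr1475* in LADs of both.

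The 65 members form a single cluster, with no gap over 500 kb between neighbors. It runs from *Olfr1417*, at 11902567 to 11903514 on the minus strand, to *Olfr1505*, at 13993432 to 13994534 on the plus strand (NCBIM37, the same assembly as mm9). The cluster is 2.09 Mb long. Its median gap between members is 20.4 kb and its largest is 250.8 kb. There are 34 members on the plus strand and 31 on the minus strand, 60 have a single exon, and the spans are 515 to 5678 bp long with a median of 948 bp. *Olfr1438-ps1* and *Olfr1456-ps1* carry the name of a pseudogene although the annotation calls them protein-coding.

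Most members were in LADs in WT, and fewer were in the KO. WT LADs held the start of 59 members and KO LADs held the start of 27. With LADs joined across gaps of up to 50 kb, WT LADs held the start of 63 and KO LADs that of 38, which is a majority, and 25 members were PI and 38 PP. In both genotypes 26 starts were in a LAD, 33 were in a WT LAD only, 1 (*Olfr1499*) was in a KO LAD only, and 5 were in neither. By whole spans, 58 members lay entirely inside WT LADs and 26 entirely inside KO LADs. Of all member bases, 81.3% were in WT LADs and 37.6% in KO LADs.

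By class, 32 members (49.2%, 37.5% to 61.1%) were PI, against 5.43% of all protein-coding genes. No member was IP (0%, 0% to 5.58%), against 17.1% of all genes. There were 27 PP members, 41.5% against 17.9% of all genes, and 6 II members, 9.23% against 56.6%. None was AMB, against 2.96%. The members therefore exceeded the share of all genes in both PI and PP. The lack of IP members is largely set by WT cover, since 58 members lay wholly in WT LADs, where no KO-only DR can lie. Elsewhere 1.24% of *Olfr* genes were IP. WT LADs held the start of 90.8% of the members and of 22.7% of all genes. Of those starts, 55.9% for the members and 11.5% for all genes were outside KO LADs.

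**Figure D1:**
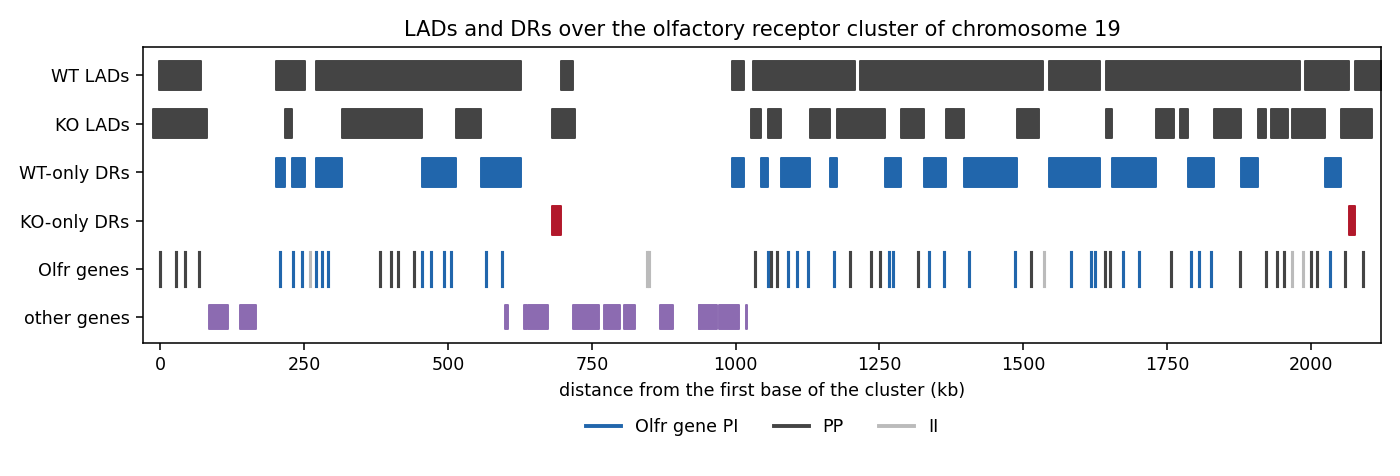
The receptor cluster of chromosome 19, with distance from its first base in kb on the horizontal axis. Rows show WT LADs, KO LADs, WT-only and KO-only DRs, the start of each of the 65 *Olfr* genes colored by class, and the 13 other protein-coding genes inside the cluster. The 11 WT LADs face 20 KO LADs, and 17 WT-only DRs alternate with kept stretches.

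Members have a median span of 948 bp and DRs are at least 10 kb long. A member touched by a DR will therefore mostly lie inside it in full. Of the 32 PI genes, 30 lay wholly within a WT-only DR. They were *Olfr1423*, *Olfr1424*, *Olfr1425*, *Olfr1428*, *Olfr76*, *Olfr1433*, *Olfr1436*, *Olfr1437*, *Olfr1438-ps1*, *Olfr1440* and *Olfr1441* in the first part of the cluster, and *Olfr1448*, *Olfr1449*, *Olfr1450*, *Olfr1451*, *Olfr1457*, *Olfr1458*, *Olfr1461*, *Olfr1462*, *Olfr1463*, *Olfr1465*, *Olfr1469*, *Olfr1471*, *Olfr1472*, *Olfr1477*, *Olfr1480*, *Olfr1487*, *Olfr1489*, *Olfr1490* and *Olfr1502* in the second. For each of these 30, 100% of the gene was WT LAD and 0% was KO LAD. The exceptions were *Olfr1427*, of which a WT LAD covered 91.4% and KO LADs none, and *Olfr1445*, which lay wholly in a WT LAD and kept 83.2% of its span in a KO LAD. *Olfr1445* was PI through the 16.8% of its span that lay in a DR, the part that holds its start.

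The PI genes lay near KO LADs along the DNA, which is partly set by the length of the DRs (11.2 to 91.6 kb). This is no measure of distance to the lamina in the nucleus. The distance from a PI gene to the nearest KO LAD was 0 to 55.0 kb with a median of 11.3 kb. It was within 10 kb for 16 of them and beyond 20 kb for 8. *Olfr1433* was 78 bp from a KO LAD, and *Olfr1469* was the farthest at 55.0 kb.

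The 27 PP members were *Olfr1417*, *Olfr1418*, *Olfr1419* and *Olfr1420* at the first end of the cluster, *Olfr1431*, *Olfr1432*, *Olfr262* and *Olfr235* in a second group, and *Olfr1444*, *Olfr1446*, *Olfr1447*, *Olfr1453*, *Olfr1454*, *Olfr1456-ps1*, *Olfr1459*, *Olfr1466*, *Olfr1474*, *Olfr1475*, *Olfr1484*, *Olfr1491*, *Olfr1494*, *Olfr1495*, *Olfr1496*, *Olfr1500*, *Olfr1501*, *Olfr1504* and *Olfr1505* in the rest. All but 2 of the PP members lay wholly in LADs of both genotypes. A WT LAD covered 35.2% and a KO LAD 64.6% of *Olfr1474*, whose start was in neither. *Olfr1494* lay wholly in a WT LAD and had 13.2% of its span in a KO LAD.

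The 6 II members were of different kinds. *Olfr1426*, *Olfr1442*, *Olfr1443* and *Olfr1467* touched no LAD in either genotype. *Olfr1442* and *Olfr1443* were the most remote, at 128 and 132 kb from the nearest WT LAD and 126 and 130 kb from the nearest KO LAD. *Olfr1426* was 6.94 kb and *Olfr1467* 2.76 kb from a WT LAD, and in WT both sat in narrow gaps between LADs. In the KO the nearest LAD was 30.6 kb from *Olfr1426* and 9.10 kb from *Olfr1467*, and the WT LADs beside these gaps were partly or wholly lost. *Olfr1497* and *Olfr1499* were II only through the minimum length of a DR. *Olfr1497* lay wholly in a WT LAD and outside KO LADs, in a stretch of 8.06 kb. *Olfr1499* lay wholly in a KO LAD and outside WT LADs, in a stretch of 9.09 kb. They are neighbors in the order of the genes, and their changes ran in opposite directions.

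LAD borders cut through some members, and the sequences at these borders show how a position is set by the cutting site of the assay. Each window below is 80 bases of the plus strand of NCBIM37 around a border, with GATC, the site that Dam methylates, in capitals. The KO LAD that holds the 3′ part of *Olfr1445* starts in chr19:12958473-12958552. The WT LAD over *Olfr1427* starts in chr19:12173233-12173312. The KO LAD next to *Olfr1433* ends in chr19:12357357-12357436.
Olfr1445 border: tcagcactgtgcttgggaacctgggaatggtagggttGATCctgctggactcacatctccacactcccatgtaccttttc
Olfr1427 border: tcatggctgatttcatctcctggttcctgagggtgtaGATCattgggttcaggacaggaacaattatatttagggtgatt
Olfr1433 border: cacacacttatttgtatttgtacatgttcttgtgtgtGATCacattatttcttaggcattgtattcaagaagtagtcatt
All 58 borders of LADs inside the cluster sat at a GATC site. A border is therefore known to the nearest site at best. The WT and KO borders inside *Olfr1474* are of this kind, since they fall on different GATC sites of the same gene, at 13546074 in WT and 13545797 in KO.

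The cluster was covered by LADs over 73.2% of its length in WT (1532 kb) and 39.5% in KO (826.9 kb). Of the WT LAD bases, 767.5 kb or 50.1% were outside KO LADs. In the other direction 62.4 kb, or 7.55% of the KO LAD bases, were new. A further 764.5 kb was in LADs of both genotypes and 497.5 kb in neither. The 11 WT LADs were 21.5 to 356 kb long with a median of 88.9 kb, and the 20 KO LADs were 10.3 to 139 kb long with a median of 37.2 kb. LADs were thus more numerous and shorter in the KO. This was not particular to the cluster. Chromosome 19 as a whole had 242 WT LADs with a median of 40.9 kb and 404 KO LADs with a median of 21.4 kb. The study also reports more LADs of smaller average size in the KO over the genome.

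The longest WT LAD, at 12173273 to 12529481 (356 kb), held 13 members, of which 9 were PI and 4 PP. In the KO, 2 LADs kept 50.8% of it. The next, at 13546074 to 13882939 (337 kb), also held 13 members, 5 of them PI and 7 PP, and was broken into 7 KO LADs that kept 47.1%. The WT LAD at 13118246 to 13436357 (318 kb) held 10 members, 6 PI and 4 PP, with 4 KO LADs on 48.3% of it. These 3 LADs show the same picture, in which about as much was kept as was lost and the members were divided between the classes.

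Of the next 2 in length, the LAD at 13979052 to 14199761 (221 kb) reached out of the cluster and held only *Olfr1505*, and the LAD at 12933410 to 13109332 (176 kb) held 9 members, 5 PI and 4 PP, with 58.2% kept. Single LADs went to either extreme. The WT LAD at 13447548 to 13536437 (88.9 kb), with *Olfr1469*, *Olfr1471* and *Olfr1472*, met no KO LAD at all. The WT LAD at 11899959 to 11973942 (74.0 kb), with *Olfr1417* to *Olfr1420*, was kept in full.

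The 5 longest KO LADs on the cluster held PP members and *Olfr1499*. The longest was 139 kb, at 12218539 to 12357396, and held *Olfr1431*, *Olfr1432*, *Olfr262* and *Olfr235*. The next, of 93.3 kb at 11890010 to 11983311, held *Olfr1417* to *Olfr1420*. One of 83.9 kb at 13078537 to 13162480 held *Olfr1453*, *Olfr1454* and *Olfr1456-ps1*, and it bridged a gap between WT LADs. Those at 13870263 to 13926373 (56.1 kb) and 13954334 to 14008395 (54.1 kb) held *Olfr1499* to *Olfr1501*, and *Olfr1504* with *Olfr1505*.

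The 17 WT-only DRs were 11.2 to 91.6 kb long with a median of 38.6 kb, and 2 of them held no member. The longest, at 13299680 to 13391285 (91.6 kb), held *Olfr1463* and *Olfr1465*. It was followed by the whole lost LAD of 88.9 kb, by 13556126 to 13633722 (77.6 kb) with *Olfr1477* and *Olfr1480*, by 12459056 to 12529481 (70.4 kb) with *Olfr1440* and *Olfr1441*, and by 12357397 to 12416878 (59.5 kb) with *Olfr1433*, *Olfr1436*, *Olfr1437* and *Olfr1438-ps1*. The 2 KO-only DRs, of 16.2 kb at 12582627 to 12598776 and 10.9 kb at 13968178 to 13979051, held no member.

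Released and kept genes alternated along the cluster. In the order of the genes, the LAD state of the starts formed 29 runs. The longest run of starts in WT LADs only had 6 genes, from *Olfr1433* to *Olfr1441*. The longest run of starts in LADs of both genotypes had 4 genes. The runs were not sorted by strand, with 18 plus-strand and 15 minus-strand genes among the starts in WT LADs only, and 12 and 14 among those kept.

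Other protein-coding genes divide the members into 4 blocks, a division made after the annotation had been seen. *Olfr1417* to *Olfr1420* (4 genes) lost none of their WT LAD bases. *Olfr1423* to *Olfr1441* (17 genes) lost 47.6%, with 12 PI, 4 PP and 1 II genes. *Olfr1442* and *Olfr1443* had no LAD. *Olfr1444* to *Olfr1505* (42 genes over 1058 kb) lost 52.8%, with 20 PI, 19 PP and 3 II genes. WT LADs covered 95.1% of the block of 17 genes and 95.3% of the block of 42 genes. The incomplete WT cover of the whole cluster thus lay mostly between the blocks.

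The other genes inside the cluster were mostly II, as were the other genes of the chromosome. Over the 659 other protein-coding genes of chromosome 19, 79.4% were II, and over all genes 56.6%. Of the 13 inside the cluster, 10 were II and touched no LAD. They were *Patl1*, *Osbp*, *Mpeg1*, *Dtx4*, *Gm4952*, *Glyat*, *Keg1*, *Cntf*, *Zfp91* and *Gm5244*. *Glyat*, which encodes glycine N-acyltransferase of liver mitochondria, lies at 12707798 to 12728401 near *Olfr1442*, 87.5 kb from the nearest WT LAD and 84.7 kb from the nearest KO LAD. *Pfpl*, a gene of a predicted pore-forming protein, lay wholly in the DR that released *Olfr1440* and *Olfr1441*. *Lpxn*, which encodes the adaptor leupaxin, was PI with 36.1% of its span in a DR, and *Fam111a* was PP, with a WT LAD on 0.143% and a KO LAD on 6.53% of its length. The neighbors outside the cluster were *Stx3* before it, with 8.77% of its span in a KO LAD and none in a WT LAD, and *Tle4* after it, which touched none. Both were II.

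The comparison with receptor genes elsewhere asked whether the release goes with the gene family. Of 240 *Olfr* genes on chromosome 7, 15 (6.25%) were PI and 211 PP. Of 286 on chromosome 2, 10 (3.50%) were PI and 274 PP. Over all other chromosomes, 75 of 1048 (7.16%, 5.75% to 8.88%) were PI, 893 PP, 13 IP, 66 II and 1 AMB. On chromosome 19 it was 49.2% (37.5% to 61.1%). These intervals take genes as independent, while the members share the LADs of 1 cluster, so they do not test the difference. Chromosome 19 held 5.84% of the *Olfr* genes and 29.9% of the 107 PI ones.

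The starts gave the same order. Of 983 *Olfr* starts in WT LADs on the other chromosomes, 8.75% (7.14% to 10.7%) were outside KO LADs, with 8.66% on chromosome 7 and 3.50% on chromosome 2. On chromosome 19 it was 33 of 59 (55.9%, 43.3% to 67.8%). By bases, the *Olfr* genes of the other chromosomes went from 85.8% in WT LADs to 83.1% in KO LADs.

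**Figure D2:**
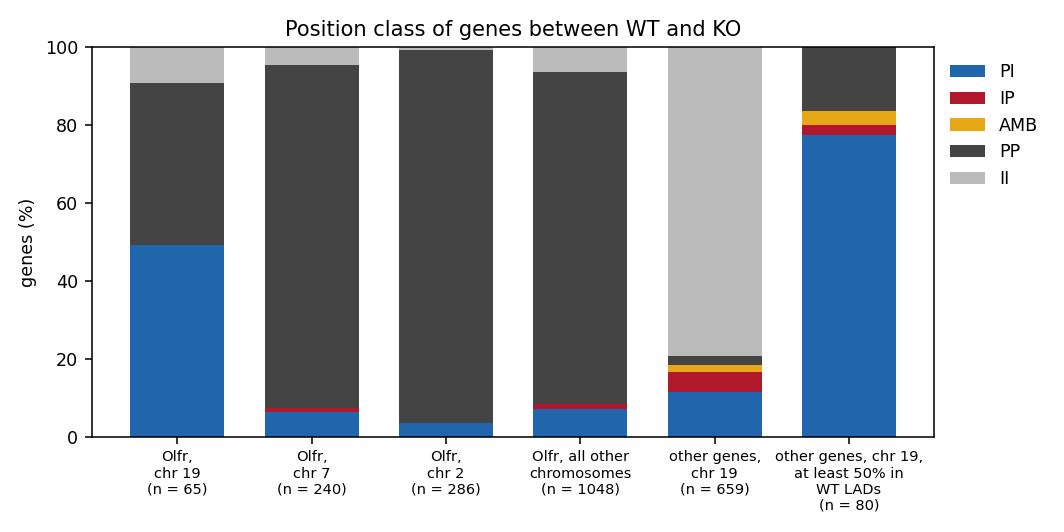
Percentage of genes in each position class for 6 gene sets, as stacked bars. PI genes make up 49.2% of the *Olfr* genes of chromosome 19, 7.16% of those on all other chromosomes, and 77.5% of the other chromosome 19 genes with at least 50% of their span in WT LADs.

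Among the 12 other chromosomes with at least 10 *Olfr* genes, the PI share ran from 2.50% on chromosome 14 to 22.2% (18 of 81) on chromosome 11. On chromosome 15, which has 9 *Olfr* genes, 5 were PI (55.6%), so a high share was also found in a small group elsewhere.

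The comparison with the rest of chromosome 19 asked whether the release goes with the chromosome. Of the 659 other protein-coding genes, 76 (11.5%) were PI, but most of them started outside LADs. Where a gene start was in a WT LAD, which was so for 57 of them, 50.9% (38.3% to 63.4%) of the starts were outside KO LADs. For the receptor genes it was 55.9% (43.3% to 67.8%), and these intervals again take genes as independent. The 80 genes that WT LADs covered over 50% or more of the span were 77.5% PI. These genes have a median length of 27709 bp and the receptor genes one of 948 bp, so the classes are not comparable between them: a long gene has more chances to touch a DR. By starts, which do not depend on length, this set lost 52.8%.

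By bases, chromosome 19 outside the cluster lost 61.5% of its WT LAD bases, and all other chromosomes lost 12.1%. The 1 Mb before the cluster lost 71.9% and the 1 Mb after it lost 66.3%. The cluster, at 50.1%, thus lost less than its flanks and less than the rest of the chromosome, and more than the other chromosomes together.

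The 23 *Olfr* clusters with at least 10 genes were then set side by side, by the same 500 kb rule. The 22 others lost 1.03% to 44.9% of their WT LAD bases, with a median of 5.72%. The chromosome 19 cluster ranked first, but not by a wide margin. *Olfr522* to *Olfr541* on chromosome 7 (19 genes, 9 PI) and *Olfr30* to *Olfr311* on chromosome 11 (20 genes, 9 PI) each lost 44.9%, and *Olfr62* to *Olfr1328* on chromosome 4 (13 genes, 4 PI) lost 35.4%. All others lost 16.2% or less. WT LADs covered a median of 99.3% of the 22 other clusters and KO LADs a median of 93.7%.

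The length of the longest WT LAD touching each cluster was compared between clusters. LADs were taken at full length, also where they reach out of the cluster. For example, *Olfr433* to *Olfr220* on chromosome 1 is 408 kb long, and its longest WT LAD is 2048 kb. In the 4 clusters that lost at least 30%, the longest WT LAD was 165 to 423 kb. In the 15 that lost under 10%, the longest WT LAD was 689 to 2676 kb. Of the 4 clusters between these limits, *Olfr1358* to *Olfr57* (334 kb, 16.2% lost) and *Olfr56* to *Olfr1380* (291 kb, 15.3% lost) had WT LADs as short as those of the first group with a smaller loss. These limits were chosen after the losses had been seen, and the length of a LAD and its loss come from the same lists.

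**Figure D3:**
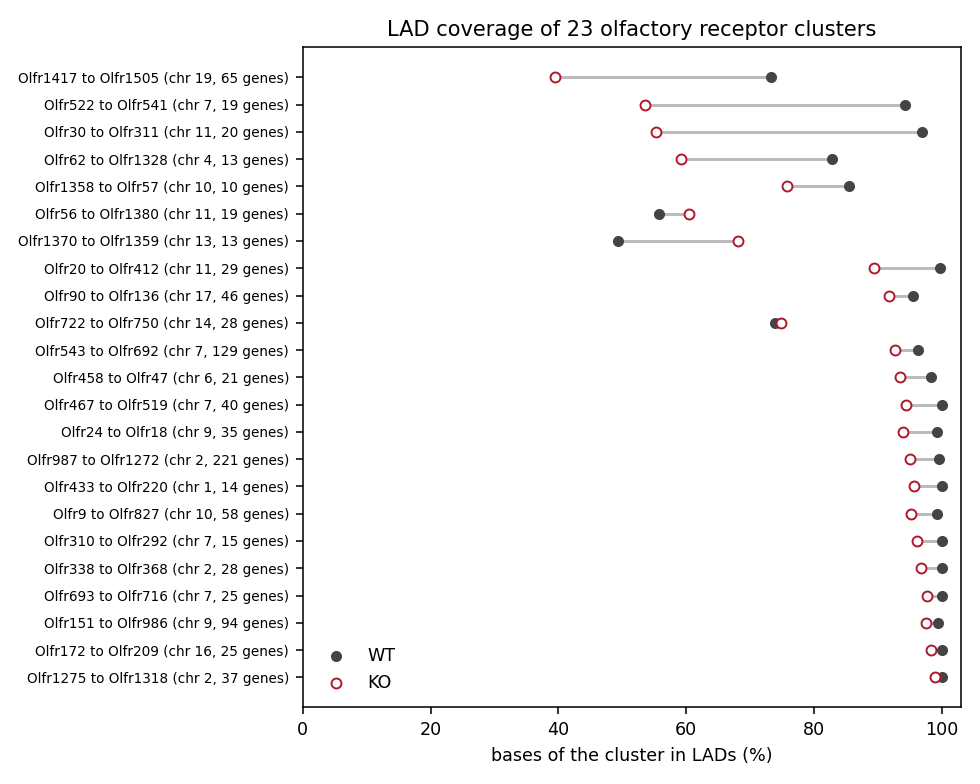
LAD coverage of 23 olfactory receptor clusters, as the percentage of cluster bases in WT LADs (filled points) and KO LADs (open points), in order of the share of WT LAD bases lost. The chromosome 19 cluster falls from 73.2% to 39.5%.

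The sequence of the cluster was compared between the LAD states, since GATC density and repeated sequence affect what DamID can measure. The cluster has 5722 GATC sites, or 2.74 per kb against 2.46 per kb over chromosome 19, and 39.2% GC against 42.7%. Stretches in LADs of both genotypes had 3.07 GATC sites per kb and those in WT LADs only 2.61. Of all 32-base words of the cluster, 77.7% occurred once in the genome. It was 68.4% in the stretches kept and 79.2% in those released, so more of the kept sequence was repeated. GC content was 39.0% in the kept and 38.0% in the released stretches. Stretches in LADs of neither genotype had 90.4% of words found once, 2.34 GATC sites per kb and 41.0% GC. Those in KO LADs only had 72.0%, 2.34 per kb and 40.6%.

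The members themselves differed little in these features. Kept starts belonged to genes with a median of 3.5 GATC sites (1 to 6) and starts in WT LADs only to genes with a median of 3 (0 to 6). *Olfr1449* was the member without a GATC site, so its class rests on the fragments around it. The share of words found once was 29.2% to 100% (median 82.9%) for the kept and 23.1% to 100% (median 89.7%) for the released genes. Among the 29 members with at least 90% of their words found once, a limit set after seeing the data, 15 (51.7%) were PI. Among all members it was 49.2%. Words were counted in the gene span only, while LADs are at least 10 kb long. The part of repeated sequence in the classes was not tested.

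**Figure D4:**
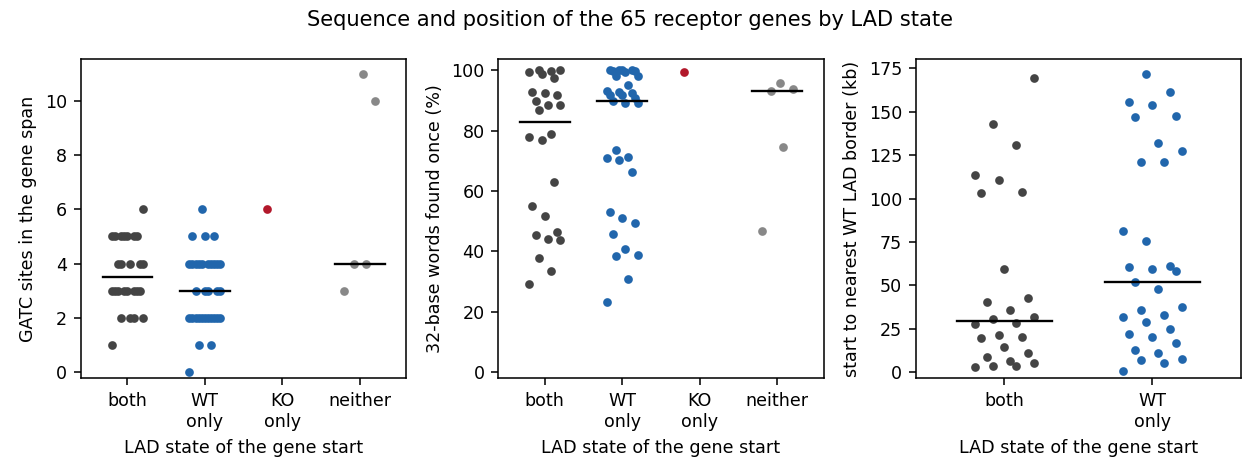
GATC sites in the gene span, percentage of 32-base words found once in the genome, and distance from the gene start to the nearest WT LAD border in kb, for each member by the LAD state of its start. Points are genes and bars are medians. The first 2 features overlap widely between kept and released genes.

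Position within a WT LAD differed in the median but not in the range. The start lay 29.3 kb from the nearest border of its WT LAD (2.82 to 169 kb) for kept genes and 51.9 kb (0.856 to 172 kb) for those in WT LADs only. Released genes were therefore not confined to LAD edges.

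Likeness in sequence and LAD state were also compared across all members. The 2080 pairs of coding sequences were 32.2% to 97.5% identical, with a median of 58.1%. The most similar other member was 43.7% to 97.5% identical, with a median of 88.0%. It had the same LAD state at its start for 42 of the 65 members, and it was the adjacent gene for 23. As 33 starts were in WT LADs only and 26 in LADs of both, many pairs share a state whatever their likeness. Along the order of the genes the state switched 28 times. Whether likeness goes with LAD state was not tested. Besides the pairs already given, *Olfr1484* (PP) matched *Olfr1477* (PI) at 96.5% over 82.0 kb and *Olfr1487* (PI) at 95.04% over 32.9 kb. *Olfr1484* has 2 GATC sites in its coding sequence, as do *Olfr1477* and *Olfr1487*. Reads from such copies may have been placed at either of them, and the part of this in their classes was not tested.

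A promoter was found in the RefSeq table for 58 of the 65 members. All 58 could be placed on NCBIM37 and all had the LAD state of the gene start. Their starts were a median of 0 kb and at most 2.24 kb from the gene start, so the states could hardly differ. The motifs searched read the same on both strands. TAATTA was found in 12 of the 58 (20.7%), against 18.6% of all 948 *Olfr* promoters in the table and 5.29% of all 32851 promoters. It was in 5 of 24 kept promoters (20.8%) and in 5 of 28 in WT LADs only (17.9%). CCCNNGGG, a core of EBF sites, was in 1 of the 58 (1.72%), against 3.06% of the *Olfr* promoters and 13.7% of all promoters. These matches are letters in a window at the annotated start, which can be the start codon, and not binding sites.

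Genes of the olfactory system outside the receptor family were looked up in the same lists. The 29 genes comprised 2 PI, 8 IP, 1 PP, 14 II and 4 AMB. Over all protein-coding genes the shares were 5.43% PI, 17.1% IP, 17.9% PP, 56.6% II and 2.96% AMB. In this list PI made up fewer genes than IP, as over all genes. *Cnga2* and *Cnga4*, subunits of the olfactory cyclic nucleotide-gated channel, lay wholly in KO LADs and in no WT LAD. *Adcy3*, the adenylyl cyclase of odorant signaling, had 25.97% of its span in KO LADs and none in WT LADs. *Lbr*, which encodes the lamin B receptor that tethers heterochromatin to the NE, lay wholly in a KO LAD only. The channel component *Cngb1*, the olfactory marker protein gene *Omp* and the receptor transport genes *Rtp1* and *Rtp2* were II. *Lhx2* and *Ldb1*, whose products act together at receptor gene enhancers, were II, and so was *Emx2*. *Ldb1* and *Emx2* are on chromosome 19. *Ncam2* and *Ebf1* were PI, with 12.7% and 41.6% of their long spans in DRs.

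The deleted gene itself, *Tm7sf2*, lies on the same chromosome at 6062821 to 6068373, 5.83 Mb before the cluster. It was II, with the nearest WT LAD 1629 kb and the nearest KO LAD 907 kb away. Lists of intervals cannot show the deletion, so they give no check of the genotype. As both the gene and the cluster are on chromosome 19, an effect of the altered locus on its own chromosome and an effect of losing the protein cannot be told apart here.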

How the data were processed

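DamID libraries of WT and KO hepatocytes (4 in all) were used through 2 LAD lists and 2 DR lists. The authors mapped reads to mm9, divided Dam-LaminB1 by Dam-only signal on each *DpnI* fragment, on the log2 scale, and segmented the profile into LADs. The submitters' processing notes name BWA and limma, with no role given. The deposited values used here are interval borders. They hold no signal or count, so depth could not be read from them, and the study states fewer usable reads for KO than for WT. The lists cover 21 chromosomes, and 0 columns were of unknown sample.

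Subtracting the LAD lists and keeping stretches of at least 10000 bp returned all 7787 WT-only and 8208 KO-only DRs with identical borders. Gene spans came from the GENCODE annotation of NCBIM37. Genes were classed by an overlap of at least 1 base, and clusters were split at gaps over 500 kb. Coding sequences were aligned globally with Biopython 1.88, identity being matches over the aligned length. Words of 32 bases were counted over the genome on both strands. Python 3.11.15, numpy 2.4.6 and matplotlib 3.10.9 were used. Interval steps were tested on simulated data, with 0 errors in 500 gene classes. RefSeq promoters (GRCm38.p6) were placed by exact match.

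Named genes are all members, the first and last of the cluster, the neighbors, and the 5 longest LADs and WT-only DRs. As 30 PI members tied at 100%, they are given together. The members and gene lists were chosen with earlier results of these data known. Samples were grouped by their titles. With 1 library per group no test was made. Alternatives covered the overlap asked of a gene, the minimum length and joining of LADs, the cluster limits and pseudogenes. Of 10 hepatocyte genes, *Tf* was not found under that symbol. The DamID profiles, other assays and protein sequences are not analysed here.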

Additional observations from a re-analysis of the deposited data

How the results depend on the processing

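No paired analysis was possible because each group has 1 library, and for the same reason no library could be left out. A value was counted as unchanged when it stayed within a factor of 1.5 or, for a percentage of genes, within its 95% interval. Of 88 values under alternatives, 72 were unchanged and 16 moved. Reversals of order were not scored. With LADs joined across gaps of up to 50 kb, the PI and PP counts of the members were unchanged by this rule. Their order did change, from 32 PI and 27 PP to 25 PI and 38 PP. Counting the 100 kb centered on each gene moved most, because such a window reaches across several of the alternating stretches: 53 of the chromosome 19 members were then PI, 7 PP, 2 II and 3 AMB, and the PI share was 81.5% of these members, 17.9% of the *Olfr* genes of chromosome 7, 24.5% of those of chromosome 2, 24.05% of those of all other chromosomes and 15.9% of the other genes of chromosome 19. With LAD differences of any length, 2 members were IP (0 otherwise) and 9.16% of the *Olfr* genes of all other chromosomes were PI. With DRs of at least 20 kb, the PI share was 1.05% on chromosome 2 and 4.20% on all other chromosomes. With LADs joined across gaps of up to 50 kb, 2 members were II. Among the other genes of chromosome 19, the PI share was 7.13% with at least 50% of the span in DRs and 4.25% by the gene start. The share of WT LAD bases lost from the cluster stayed within the factor under each alternative tried, with 37.1% when LADs were joined. The other clusters were not recomputed with joined LADs, so the rank of the chromosome 19 cluster holds for the lists as deposited. The lists hold no LAD shorter than 10 kb, so shorter contacts are outside what they hold, and borders are set by GATC sites and by a depth that differed between the genotypes.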

Other observations

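The annotation also holds 2 *Olfr* pseudogenes on chromosome 19 that are not among the members. *Olfr1452-ps1* (13090715 to 13091639) lay wholly in LADs of both genotypes and was PP. *Olfr1503-ps1* (13951941 to 13952743) lay wholly in a WT LAD and outside KO LADs, 1.59 kb from the nearest KO LAD, and was PI.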
